A study of Homo sapiens with 32 samples.

Results

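The populations with low and medium KinprolaPKA labeling of a pooled CRISPR-knockout screen were compared, sgRNA by sgRNA and gene by gene. They make up 16 of the 32 sequenced samples of the series, which are 4 of its 8 libraries, because each library was sequenced on 4 lanes. Members were the samples whose labels name the low population or the basal population, the labels' word for medium. The cells were RKO, an established human colon carcinoma line, stably expressing Cas9 and KinprolaPKA, a HaloTag-based recorder that takes up the fluorescent substrate CPY-CA when protein kinase A (PKA) is active and that carries EGFP as a measure of its own amount. All groups carried the genome-wide HD CRISPR sublibrary A, delivered by lentivirus, all were labeled with CPY-CA, and all were sorted on the ratio of CPY-CA to EGFP. The low population took around 25% of the cells, the high population around 25% and the medium population around 50%. The screen was run 2 times, as the labels' replicates 2 and 3 (screen 2 and screen 3 here), each with 1 library for each sorted population and 1 library of day 0 (T0). The paper describes the screens as independent. A transgenic line grown in 2 screens limits the comparison to that line. The p-values rest on the spread between these 2 screens, which is partly pooled over genes.

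PKA is held inactive by regulatory subunits until cyclic AMP binds them and frees the catalytic subunits. Cyclic AMP is made by adenylyl cyclases, which the stimulatory G protein switches on downstream of its receptors, and is broken down by phosphodiesterases. The gates in this design follow the ratio of CPY-CA to EGFP. A knockout that lowers this ratio has more of its sgRNA reads in low than in medium, and one that raises it has fewer. The ratio can change with PKA activity, with the labeling of the recorder in another way, or with its EGFP signal. The reads count integrated sgRNA cassettes, so they measure which cells entered a gate and not how much of a protein was made.

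The low libraries held 25934312 reads in screen 2 and 25269709 in screen 3, and the medium libraries held 30406448 and 25964569. The median sgRNA had 287 and 279 reads in the low libraries and 336 and 288 in the medium libraries, and the share of the 74987 sgRNAs below 50 reads was 3.08% to 4.37% in these 4 libraries. The 4 lanes of each library were summed, as their counts agreed within sampling noise, with a chi-square of 1.02 to 1.03 for each degree of freedom. The same measure between the screens was 5.76 for the low libraries and 7.34 for the medium libraries. To make libraries comparable, each was set to the mean total of all libraries and 1 read was added to every value. The log2 fold change of low over medium was taken screen by screen, with the mean over a gene's sgRNAs as its value. limma tested the mean of the 2 screens (n = 2) against 0, with Benjamini-Hochberg adjustment, and a gene is said to have risen or fallen in the low population where its adjusted p was under 0.05. The SE given below is limma's, which draws the spread of a gene's 2 screens towards a spread pooled over genes. It is therefore not the SE of the 2 screens alone. The SD of the fold change over the 18638 genes was 0.254 (screen 2) and 0.259 (screen 3). Values called scaled reads below are summed over the sgRNAs of a gene, usually 4. Their ratio can differ from the log2 fold change, which weighs rare sgRNAs as much as common ones.

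In all, 219 genes were higher in the low than in the medium population, or 1.18% of the genes tested, and 287 were lower, or 1.54%. None of these 506 genes changed sign between the screens. They were called on the mean of both screens, where a gene of opposite signs could hardly pass, so this is no separate check. An unadjusted p under 0.05 was found for 2073 genes (limma). The genes that were higher had a median log2 fold change of 0.83 and those that were lower of −0.74, and the smallest change past the threshold was 0.48 in absolute log2 units. Leaving out each library in turn gave fewer calls, and fewest without a low library. Such a fit has 1 library of that population and takes its spread from the other populations alone. Here and below, it cannot tell whether a call depended on that library or was lost to a changed error estimate. Leaving out the low library of screen 2 left 32 higher and 42 lower genes, and leaving out that of screen 3 left 20 and 11, against 175 to 187 higher and 195 to 242 lower genes without a medium library. Calls were more frequent among genes with few reads, since 28.7% of the 164 genes under 50 reads per sgRNA passed the threshold and 0.70% of the 1138 genes with at least 600. The SD of the difference between the screens was 0.87 in the first of these groups and 0.18 in the second, while limma pooled 1 spread over all genes, so the errors given for genes of low read number may be too small. For that reason the genes with the largest changes are named from those with at least 50 reads per sgRNA, and others are marked by their reads. These reads are a mean over the low and medium libraries together, so a gene can pass through the population in which it is higher. *RPL27A* passed with 139 and 134 scaled reads in medium over its 4 sgRNAs, against 444 and 271 in low.

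**Figure D1:**
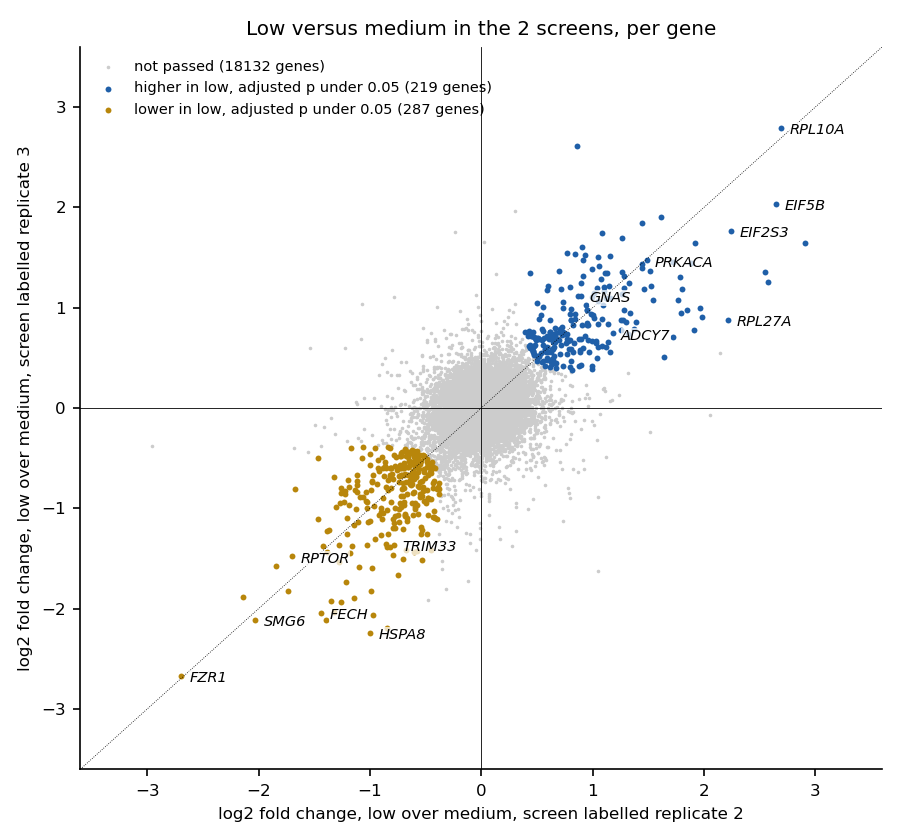
Each point is 1 gene, with its log2 fold change of low over medium in screen 2 on the horizontal and in screen 3 on the vertical axis, and the dotted line marks equal values. The 219 genes higher in the low population and the 287 lower lie in the corners where both screens have the same sign. *FZR1* and *RPL10A* stand at the ends close to the line, and *RPL27A* and *HSPA8* lie away from it.

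Single sgRNAs were tested with edgeR on the deposited counts. Of 74312 sgRNAs against genes, 479 (0.645%) were higher and 561 (0.755%) lower in the low population at an adjusted p under 0.05, and 6362 had an unadjusted p under 0.05. At least 2 sgRNAs passed in the same direction for 103 of the 219 genes that were higher and for 116 of the 287 that were lower, and no sgRNA passed for 54 and 99 of them. Of 275 control sgRNAs that match no human target, 0 were higher and 1 was lower. Control entries other than EGFP were near 0, with log2 fold changes of 0.00 for the nontargeting sgRNAs, 0.06 for LacZ, −0.04 for luciferase and −0.10 for the AAVS1 safe-harbor locus (adjusted p of 0.84 or more, limma). Of 339 genes for olfactory receptors, a negative control, 0 passed, with a median of −0.01. The sgRNAs against EGFP, which target the recorder itself, had 1749 and 1635 scaled reads in the low libraries of screens 2 and 3, against 2204 and 2135 in the medium libraries, and 1 of 20 tested passed on its own. As an entry they were lower in the low population, at −0.96 on the log2 scale (−1.01 and −0.92, adjusted p = 0.0021, limma). The logs are averaged over sgRNAs, which gives rare sgRNAs as much weight as common ones, and the summed reads of the EGFP entry differed by less, at log2 ratios of −0.33 and −0.38. In high over medium the EGFP entry had 1.005 (adjusted p = 0.018, limma).

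The list of adenylyl cyclases, stimulatory G proteins and PKA catalytic subunits had 16 genes, of which 3 were higher in the low population and 0 lower, against 1.18% and 1.54% of all genes. *PRKACA* (chromosome 19, 14091688 to 14118084, GRCh38), which encodes the main catalytic subunit (α), had 1765 and 1966 scaled reads in the low libraries of screens 2 and 3, against 679 and 731 in the medium libraries. Its log2 fold change was 1.48 (1.49 and 1.47 in the screens, SE 0.10, n = 2 screens, limma adjusted p = 0.00044), which is 2.79-fold, and it remained past the threshold under all 13 alternatives to the test. All 4 of its sgRNAs passed edgeR's test, with log2 fold changes of 1.24 to 1.68. For each sgRNA, the reads in both low libraries lay above those in both medium libraries.

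*GNAS* (chromosome 20, 58839718 to 58911192), the stimulatory G protein α subunit, had 1718 and 1808 scaled reads in low, against 905 and 848 in medium. Its log2 fold change was 1.01 (0.89 and 1.12, adjusted p = 0.0021, limma). The change came from 2 of the 4 sgRNAs. The third had 535 and 435 scaled reads in low, against 139 and 122 in medium, and the fourth had 626 and 673, against 180 and 169, whereas the second had 315 and 312 in low and 324 and 308 in medium (−0.04 and 0.02 on the log2 scale, edgeR adjusted p = 0.998). *ADCY7* (chromosome 16, 50246137 to 50318135), an adenylyl cyclase, had 3898 and 3345 scaled reads in low, against 1792 and 1990 in medium, a log2 fold change of 0.96 (1.18 and 0.74, adjusted p = 0.0049, limma), and all 4 sgRNAs passed edgeR. *GNAS* and *ADCY7* no longer passed without either low library, at log2 fold changes of 0.71 to 1.21 and adjusted p-values of up to 0.13 (limma).

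The other 13 genes of that list did not pass. *PRKACB* and *PRKACG*, the other catalytic subunits, had −0.18 and 0.28, the other 9 adenylyl cyclases had −0.14 to 0.20, *GNAL*, a G protein α subunit of the olfactory system, had 0.22, and *RIC8B*, a chaperone of such subunits, had 0.20. Among 28 genes that restrain the pathway (regulatory subunits, PKA inhibitors, phosphodiesterases and inhibitory G proteins), 1 was lower and 0 higher. This was *PRKAR1A*, the regulatory subunit type I α, with 1118 and 1017 scaled reads in low, against 1776 and 1587 in medium (log2 fold change −0.66, adjusted p = 0.011, limma). Its call was lost without either low library or the medium library of screen 2, at −0.76 to −0.57. *PRKAR2A*, the type II α subunit, stood on the other side at 0.47 without passing (adjusted p = 0.054, limma). The phosphodiesterases reached from −0.28 for *PDE4B* to 0.25 for *PDE1C*, and none passed. No member passed among 35 receptors that couple to the stimulatory G protein (median 0.00), 15 A-kinase anchoring proteins (0.01), which tether PKA, or 13 genes of cyclic AMP-responsive transcription and the exchange factors EPAC (0.05).

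The largest rise in the low population among genes with at least 50 reads per sgRNA was that of *EIF5B* (chromosome 2, 99337371 to 99401326), the GTPase that joins the ribosomal subunits at the start codon. It had 1710 and 1585 scaled reads in low, against 414 and 334 in medium, and its log2 fold change was 2.34 (2.65 and 2.04 in the screens, SE 0.15, n = 2 screens, limma adjusted p = 0.00033), which is 5.08-fold. Its sgRNAs 1, 2 and 4 passed edgeR, and the third, with 66 and 27 scaled reads in low, against 1.8 and 15 in medium, did not (adjusted p = 0.065). *EIF2S3*, the γ subunit of the factor eIF2 that brings the initiator transfer RNA, followed with 601 and 415 scaled reads in low, against 172 and 148 in medium, a log2 fold change of 2.00. *EIF2S1*, its α subunit, had 2.27 at 43.3 reads per sgRNA. *EIF5*, the GTPase-activating protein of eIF2, had 1889 and 1959 scaled reads in low, against 886 and 792 in medium, a log2 fold change of 1.31. Of 4 sgRNAs each, 3 passed edgeR for *EIF5*, 2 for *EIF2S3* and 1 for *EIF2S1*. In the list of eIF2, eIF2B, eIF5 and eIF5B, 5 of 12 genes were higher and 1 lower. The fifth was *EIF2B4* of the exchange factor eIF2B (0.74), and the lower one was *EIF1*, a factor of start codon selection (−1.08). Without the low library of screen 2 or 3, 2 and 1 genes of the list were higher, *EIF2S3* and *EIF2S1* lost their calls at adjusted p-values of 0.055 to 0.096 (limma), and *EIF5B* kept its own. Of 13 subunits of eIF3, which binds the small subunit, 0 passed (median 0.02), and of 13 genes around the cap-binding complex eIF4F, 1 was lower (*EIF4G2*, −0.82, a relative of the scaffold eIF4G) and 0 higher.

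Knockouts of genes that build the large ribosomal subunit made up a large share of the genes that rose. Of 57 assembly factors of the large subunit, 46 were higher in the low population and 0 lower, with a median log2 fold change of 0.94 (0.99 in screen 2 and 0.84 in screen 3), against 219 higher of 18638 and a median of 0.00 over all genes. *FTSJ3*, a ribosomal RNA methyltransferase, had 1369 and 1347 scaled reads in low, against 455 and 453 in medium (log2 fold change 1.59, adjusted p = 0.00045, limma), and all 4 of its sgRNAs passed edgeR. *ISG20L2*, an exonuclease that trims ribosomal RNA, had 1490 and 1333 in low, against 440 and 561 in medium (1.55), and *WDR74*, which works with a remodeling ATPase of the nucleolus, had 1043 and 658, against 278 and 284 (1.50). That ATPase, *NVL*, had a log2 fold change of 1.44. *NIP7*, *GNL3*, *RPF2*, *BRIX1* and *NOC3L*, all factors of early or nuclear steps, had 1.34 to 1.48, and *PES1* of the PeBoW complex had 847 and 787 scaled reads in low, against 403 and 444 in medium (1.29). The partners of *PES1* in that complex, *BOP1* and *WDR12*, had 0.74 and 1.24. *NOP2*, which methylates the large ribosomal RNA, had 1041 and 834, against 589 and 466 (0.90, adjusted p = 0.0028, limma), and *EIF6*, which keeps the new subunit from joining too early, had 1.12. Of 4 sgRNAs each, 2 passed edgeR for *PES1* and 1 for *NOP2* and *NIP7*. *LSG1* and *NMD3*, the export adapter, had 0.62 and 0.72, and *ZNF622*, a cytoplasmic factor, did not pass (0.25, adjusted p = 0.46, limma). The 11 that did not pass had −0.16 to 0.53 and included *FBL*, *NOP56* and *NOP58* (−0.07 to 0.12), the core of the box C/D particles that modify ribosomal RNA. Without the low library of screen 2 or 3, 9 and 5 of the 57 were higher, at medians of 0.82 and 0.93. *FTSJ3* and *PES1* lost their calls without that of screen 3 (adjusted p = 0.055, limma) and *ISG20L2* and *NOP2* without either.

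Of 45 proteins of the large subunit itself, 24 were higher and 0 lower, with a median of 0.99. *RPL31* had 615 and 422 scaled reads in low, against 237 and 267 in medium (log2 fold change 1.79, 1.92 and 1.65 in the screens). Its summed reads rose by less, at log2 ratios of 1.37 and 0.66. *RPL30* had 438 and 305, against 138 and 149 (1.76), and *RPL13* had 464 and 296, against 179 and 122 (1.66). Of 4 sgRNAs each, 2 passed edgeR for *RPL30* and 1 for *RPL31* and *RPL13*. The largest value of the whole comparison, at 28.9 reads per sgRNA, was that of *RPL10A* (chromosome 6, 35468401 to 35470785), with 257 and 169 scaled reads in low, against 37 and 28 in medium, and its log2 fold change was 2.75 (2.70 and 2.80 in the screens, adjusted p = 1.8e-05, limma), or 6.70-fold. The screens lay further apart for *RPL27A* (2.22 and 0.88) and *RPL3* (1.97 and 1.00). Of the 24 genes, 16 had at least 50 reads per sgRNA over the low and medium libraries, a mean that their own low reads raise. Allowing the spread of the test to change with reads also gave 16 of 45, and without the low library of screen 2 or 3, 6 and 5 of 45 were higher, at medians of 0.81 and 1.07. Then *EIF2S3*, *RPL30*, *ISG20L2*, *RPL27A* and *RPL3* of the 12 highest genes did not pass (adjusted p of 0.068 to 0.46, limma), or *EIF2S3*, *RPL31*, *RPL30*, *FTSJ3*, *ISG20L2* and *RPL3* (0.055 to 0.43). Leaving out the medium library of screen 2 ended the calls of *RPL27A* and *RPL3*, at 0.83 to 1.23, and leaving out that of screen 3 ended the call of *RPL30*, at 1.27. Members that did not pass included the stalk proteins *RPLP0*, *RPLP1* and *RPLP2* (0.10, −0.22 and −0.33) and *RPL5* (−0.28), which forms the 5S particle with *RPL11* (1.28).

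Few genes of the small subunit passed. Of 53 assembly factors of the small subunit, 0 passed in either direction and the median was 0.08, with a range of −0.28 to 0.61, at a median of 182.9 reads per sgRNA, against 214.8 for the assembly factors of the large subunit. Of 32 proteins of the small subunit, 1 was higher (*RPS3A*, 0.73 at 20.8 reads per sgRNA) and 2 were lower (*RPS27*, −0.73, and *RPS24*, −0.53), with a median of 0.23 at 56.0 reads per sgRNA, against 59.2 for the proteins of the large subunit. *RPS27* had 1234 and 769 scaled reads in low and 946 and 877 in medium, so its summed reads did not show the fall that its mean over sgRNAs gave. RNA polymerases I and III and their factors, which make ribosomal RNA, gave 1 higher gene of 32 (*POLR1G*, 0.54). None of these 4 calls held without either low library. Of the small-subunit proteins, 9 were higher and 3 lower with the median over sgRNAs, 4 and 1 with a pseudocount of 5 reads, 5 and 1 without the medium library of screen 3, and 4 and 0 of 25 with sgRNAs of at least 50 reads, against 30 and 2, 27 and 0, 20 and 1, and 24 and 0 of 39 large-subunit proteins. The assembly factors of the small subunit gave at most 2 higher in these 4 settings. The difference between the lists was described by counts and not tested.

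**Figure D2:**
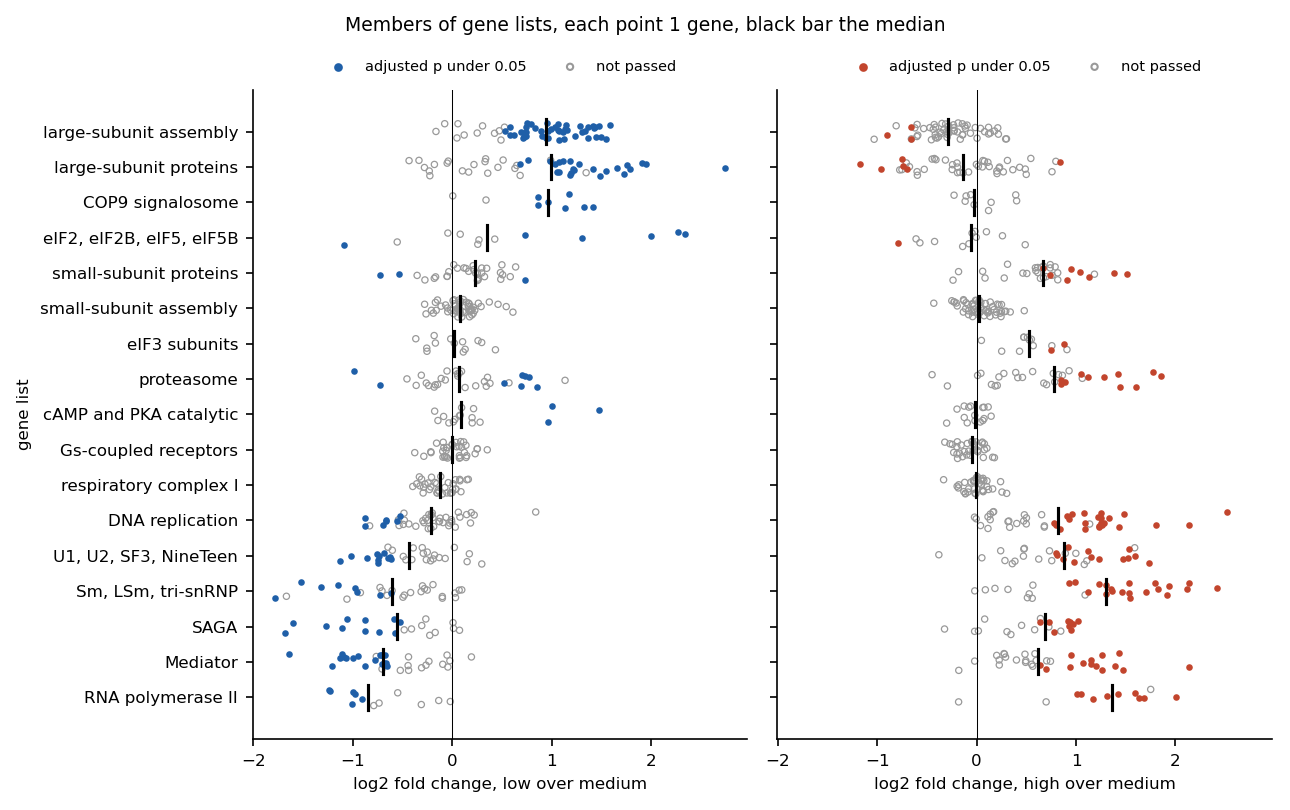
Members of 17 gene lists, with the log2 fold change of low over medium on the left and of high over medium on the right. Filled points passed an adjusted p under 0.05 and black bars are medians. Large-subunit assembly factors, with 46 of 57 filled on the left, stand apart from small-subunit assembly factors with 0 of 53, and Mediator, SAGA and RNA polymerase II have medians left of 0 in the left panel and right of 0 in the right panel.

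The COP9 signalosome, a complex that removes NEDD8 from cullin ubiquitin ligases, had 7 of 9 subunits higher in the low population and 0 lower, with a median log2 fold change of 0.96. *GPS1*, its first subunit, had 1420 and 1097 scaled reads in low, against 546 and 486 in medium (1.42, adjusted p = 0.00048, limma), and all 4 sgRNAs passed edgeR. *COPS5*, the catalytic subunit, had 1336 and 1012, against 496 and 445 (1.33), and *COPS4*, *COPS2*, *COPS3*, *COPS8* and *COPS6* had 0.87 to 1.18. The members that did not pass were the paralogs *COPS7A* (0.34) and *COPS7B* (0.01), which share a position in the complex. *GPS1* kept its call without either low library, but 1 and 2 of the 9 subunits passed without the low library of screen 2 or 3, at medians of 1.06 and 1.02. *DCAF1* (also *VPRBP*), the receptor of a CRL4 ubiquitin ligase, had 1491 and 1060 scaled reads in low, against 648 and 607 in medium, with a log2 fold change of 1.91 in screen 2 and 0.78 in screen 3 (mean 1.35, SE 0.22, n = 2 screens, adjusted p = 0.013, limma). It did not pass without the low or the medium library of screen 2 (adjusted p of 0.067 to 0.092, limma). *DDB1* and *RBX1*, which the same ligase needs, had 0.01 and −0.05, the cullins *CUL4A* and *CUL4B* 0.20 and 0.32, and *UBE2M*, which loads NEDD8, 0.53 (adjusted p = 0.042, limma), a call that was lost without any 1 of the 4 libraries. *CCNK*, the cyclin of the transcription kinases CDK12 and CDK13, was outside these lists and had 456 and 391 scaled reads in low, against 139 and 121 in medium (1.65), and it passed under all alternatives.

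The largest fall in the low population was that of *FZR1* (chromosome 19, 3506311 to 3538334), a coactivator of the anaphase-promoting complex that holds cells in G1. It had 118 and 116 scaled reads in low, against 760 and 833 in medium, and its log2 fold change was −2.68 (−2.69 and −2.67 in the screens, SE 0.10, n = 2 screens, limma adjusted p = 1.8e-05), a ratio of 0.156. All 4 sgRNAs passed edgeR, with 13 to 58 scaled reads in low, against 78 to 422 in medium. Of the other 18 genes of the complex and its regulators, 1 was higher (*CDC20*, the coactivator of mitosis, 0.85 at 41.1 reads per sgRNA) and 1 lower (*ANAPC10*, −0.57), and both calls were lost without any 1 of the 4 libraries. *TRIM33*, a regulator of TGF-β signaling with ubiquitin ligase activity, had 471 and 290 scaled reads in low, against 701 and 587 in medium (−1.08, −0.79 and −1.37 in the screens, adjusted p = 0.0051, limma), and it did not pass without the low library of screen 3, at −0.76. Of the 4 sgRNAs of *TRIM33*, 1 passed edgeR. Of the other 13 genes of TGF-β and SMAD signaling, 0 passed.

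Factors of nonsense-mediated decay and heme metabolism followed. *SMG6*, the endonuclease of nonsense-mediated decay, had 498 and 476 scaled reads in low, against 1136 and 970 in medium, and a log2 fold change of −2.07 (adjusted p = 0.00011, limma). Its summed reads fell by less, at log2 ratios of −1.19 and −1.03. Of its sgRNAs, 3 passed edgeR, at −4.23, −1.90 and −2.36 and the first did not, with 325 and 328 scaled reads in low and 303 and 271 in medium (adjusted p = 0.90, edgeR). *SMG1*, the kinase of the same pathway, had 110 and 117 scaled reads in low, against 347 and 390 in medium (−1.71). *FECH*, ferrochelatase, which places iron into heme, had 382 and 286, against 1006 and 1025 (−1.74, adjusted p = 0.00081, limma), and all 4 sgRNAs passed edgeR. None of the other 7 enzymes of heme synthesis passed, with −0.28 to 0.23. *FZR1*, *FECH* and *SMG1* passed without either low library, and *SMG6* lost its call without that of screen 3 (adjusted p = 0.055, limma).

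Subunits of Mediator, which links transcription factors to RNA polymerase II, were lower in the low population for 18 of 32 genes and higher for 0, with a median of −0.69. *MED8* had 295 and 174 scaled reads in low, against 753 and 560 in medium (log2 fold change −1.64, −1.35 and −1.93 in the screens, adjusted p = 0.00085, limma). *MED10*, *MED22*, *MED7*, *MED12* and *MED4* had −1.21 to −1.06. The kinase paralogs *CDK8* and *CDK19* had −0.02 and −0.09, *CCNC*, their cyclin, had −0.31, and *MED1* had 0.19. The coactivator SAGA, which acetylates histones, had 11 of 20 genes lower and 0 higher, with a median of −0.55. *SGF29*, a reader of histone methylation, had 680 and 685 scaled reads in low, against 1223 and 1329 in medium (−1.68), *TADA1* had 553 and 321, against 1292 and 1244 (−1.60), and *TADA2B* had 566 and 449, against 1225 and 1156 (−1.27). All 4 sgRNAs of each of these 3 genes passed edgeR. The summed reads of *SGF29* fell by less than its mean of logs, at log2 ratios of −0.85 and −0.96 in the screens. The acetyltransferase *KAT2A* had −0.74 and its paralog *KAT2B* 0.07, and *USP22* and *ATXN7L3* of the deubiquitinase module had −0.57 and −0.53. Without the low library of screen 2, 2 of 32 Mediator and 4 of 20 SAGA genes passed, at medians of −0.72 and −0.47, and without that of screen 3, 0 and 0 passed, at medians of −0.62 and −0.56. *MED8*, *SGF29* and *TADA1* were among the genes that lost their calls without the low library of screen 3, at log2 fold changes of −1.28 to −1.16, and SAGA also fell to 6 of 20 without the medium library of screen 2.

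RNA polymerase II itself had 6 of 12 subunits lower and 0 higher (median −0.85), but 10 of the 12 had under 50 reads per sgRNA. *POLR2L*, at 66.2 reads, had 189 and 160 scaled reads in low, against 397 and 321 in medium (−1.01). Leaving out the low library of screen 2 or 3 left 0 of 12, and letting the spread change with reads left 2. Of the splicing factors, 8 of 29 Sm, LSm and tri-snRNP genes were lower (median −0.60), as were 11 of 30 genes of the U1 and U2 particles, SF3 and the PRP19 complex (median −0.44), and 0 were higher in either list. However, 17 of the 29 and 10 of the 30 had under 50 reads per sgRNA, and 2 and 8 of the calls were at 50 reads or more. Letting the spread change with reads left 5 of the 29 lower. *SART3*, which recycles U4 and U6 particles, had 115 and 89 scaled reads in low, against 330 and 243 in medium (−1.78 at 48.7 reads per sgRNA). *U2AF1*, which reads the 3′ splice site, had 330 and 308, against 638 and 466 (−1.13). Without the low library of screen 2 or 3, 3 and 2 of 29 and 1 and 0 of 30 were lower, and without the medium library of screen 2, 7 of 30 were. *CPSF3*, the endonuclease that cuts messenger RNA before its tail is added, had 108 and 79, against 343 and 266 (−2.01 at 49.9 reads), and passed under all alternatives. Its list of 21 genes of messenger RNA 3′ end processing had no common direction, at a median of 0.02. In it, 2 were lower, *CPSF3* and *SYMPK* (−0.51), and 2 higher, *PCF11* (1.07) and *PABPN1* (0.89). DNA replication genes were lower for 7 of 44, such as *CDC7*, the kinase that fires origins (−0.87), and *POLD2*, a subunit of DNA polymerase δ (−0.87), with a median of −0.21, and without either low library 0 of 44 were lower, or 4 without the medium library of screen 2.

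The kinase complex mTORC1, which couples growth to nutrients, and the genes around it moved in both directions, with 5 of 31 lower and 3 higher. *RPTOR*, which defines mTORC1, had 329 and 286 scaled reads in low, against 953 and 870 in medium, and its log2 fold change was −1.59 (−1.70 and −1.48 in the screens, SE 0.11, n = 2 screens, adjusted p = 0.00044, limma), and all 4 sgRNAs passed edgeR. *MTOR*, its kinase, had 480 and 414, against 894 and 738 (−1.03), and *RRAGC*, *RHEB* and *LAMTOR3*, which bring the complex to the lysosome or switch it on there, had −0.68, −0.58 and −0.56. Of 4 sgRNAs each, 1 passed edgeR for *MTOR*, 2 for *RRAGC* and 0 for *RHEB*. The 3 that were higher were *DEPDC5* and *NPRL2* of GATOR1, which turns the Rag proteins off (0.53 and 0.51), and *RICTOR*, which defines mTORC2 (0.52). *TSC1* and *TSC2*, which inhibit *RHEB*, had 0.45 and 0.40 without passing. Leaving out either low library ended all 8 calls, with *RPTOR* at −1.64 and −1.54 (adjusted p = 0.064 and 0.086, limma). Without the medium library of screen 2 or 3, 0 and 1 genes of the list were higher and 4 and 3 lower, and centring on the sgRNAs without a target left 5 lower and 0 higher. The amino acid sensor *EIF2AK4* (GCN2) had 492 and 452 scaled reads in low, against 1251 and 1092 in medium (−1.34, adjusted p = 0.0014, limma), and its activator *GCN1* had −0.77. The other 3 eIF2 kinases had 0.03 to 0.11, and *ATF4*, the transcription factor that they induce, had 0.66 on the other side. *EIF2AK4* did not pass without the low library of screen 3 (adjusted p = 0.055, limma), *GCN1* not without either low library or the medium library of screen 3, and *ATF4* not without any 1 of the 4.

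A further 3 of the 12 genes with the largest falls act on protein folding, RNA structure and ribosome recycling. *HSPA8*, the constitutive HSP70 chaperone, had 152 and 99 scaled reads in low, against 419 and 589 in medium, a log2 fold change of −1.62 (−0.997 and −2.24 in the screens, adjusted p = 0.0077, limma). *DHX36*, a helicase that unwinds G-quadruplexes, had 456 and 332, against 1017 and 1218 (−1.52), and all 4 sgRNAs passed edgeR. *ABCE1*, which recycles ribosomes after termination, had 334 and 213, against 524 and 575, with −0.97 and −2.06 (mean −1.52). Of its 4 sgRNAs, 2 passed edgeR, and its summed reads gave log2 ratios of −0.65 and −1.43. Without the low library of screen 3, 4 of the 12 passed, and the 8 that did not were *SMG6*, *SGF29*, *MED8*, *HSPA8*, *TADA1*, *RPTOR*, *DHX36* and *ABCE1*, at absolute log2 fold changes of 0.99 to 1.87 (adjusted p of 0.055 to 0.49, limma). Without that of screen 2, *HSPA8* and *RPTOR* did not pass.

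**Figure D3:**
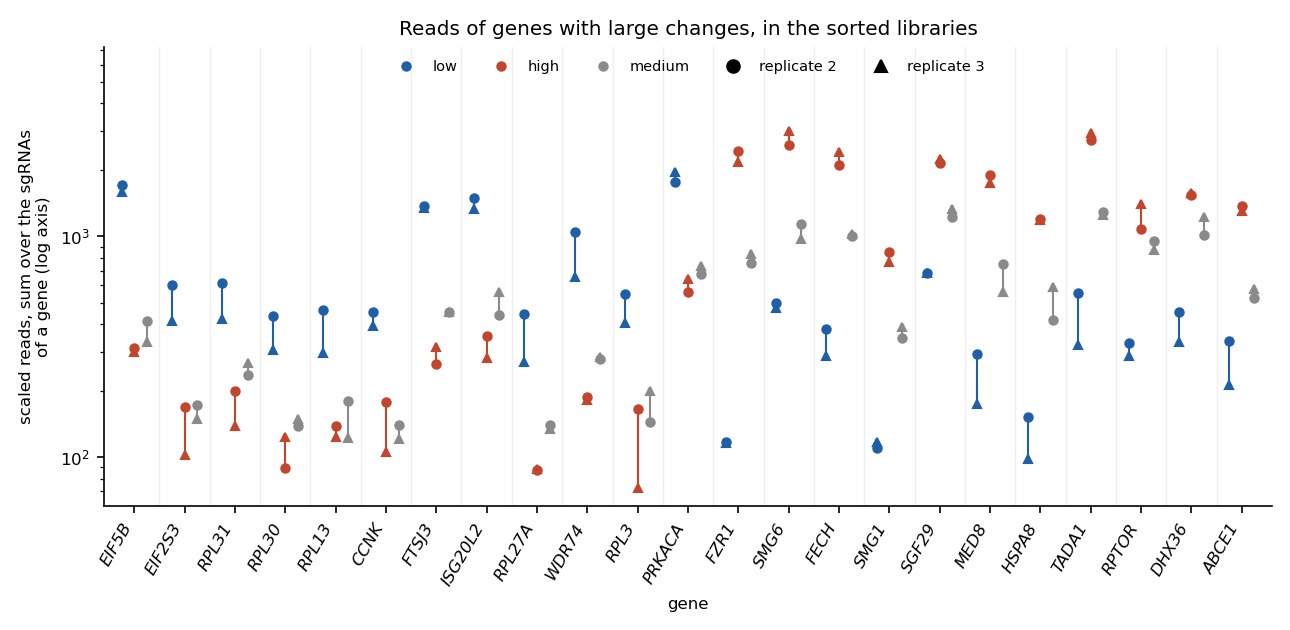
Scaled reads, summed over the sgRNAs of a gene, in the low, high and medium libraries (logarithmic axis), with a circle for screen 2 and a triangle for screen 3. The low libraries lie above the medium libraries for the 12 genes from *EIF5B* to *PRKACA* and below them for the 11 genes from *FZR1* to *ABCE1*. For *EIF5B* the high libraries (312 and 299) lie just below the medium libraries (414 and 334), and for *FZR1* (2426 and 2164) far above them (760 and 833).

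Whether a knockout changed the low side of medium more than the high side was asked by setting both against the same medium libraries. In the high population, 316 genes (1.7%) were higher and 18 (0.0966%) lower than in medium, so few knockouts passed as depleted from the high side. Others came near the threshold, such as *FTSJ3* at −0.81 (adjusted p = 0.058, limma). The 2 comparisons share the medium libraries, and their values are given side by side. *PRKACA* had 1.48 in low over medium and −0.12 in high over medium (adjusted p = 0.75, limma), *GNAS* had 1.01 and −0.30, and *ADCY7* 0.96 and −0.09. The same order held for *EIF5B* (2.34 and 0.10), *CCNK* (1.65 and −0.30), *GPS1* (1.42 and 0.12) and *PES1* (1.29 and −0.41), none of which passed on the high side. *NOP2* passed on both sides, with 0.90 and −0.90, and so did *WDR74* (1.50 and −0.66). *FZR1* had −2.68 and 1.46, *SMG6* −2.07 and 1.36, *FECH* −1.74 and 1.13 and *TRIM33* −1.08 and 1.12, all past the threshold on both sides. *RPTOR* (−1.59 and 0.42), *MTOR* (−1.03 and 0.05), *RRAGC* (−0.68 and 0.02) and *DHX36* (−1.52 and 0.48) did not pass in high over medium, and 0 of the 31 genes around mTORC1 did.

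**Figure D4:**
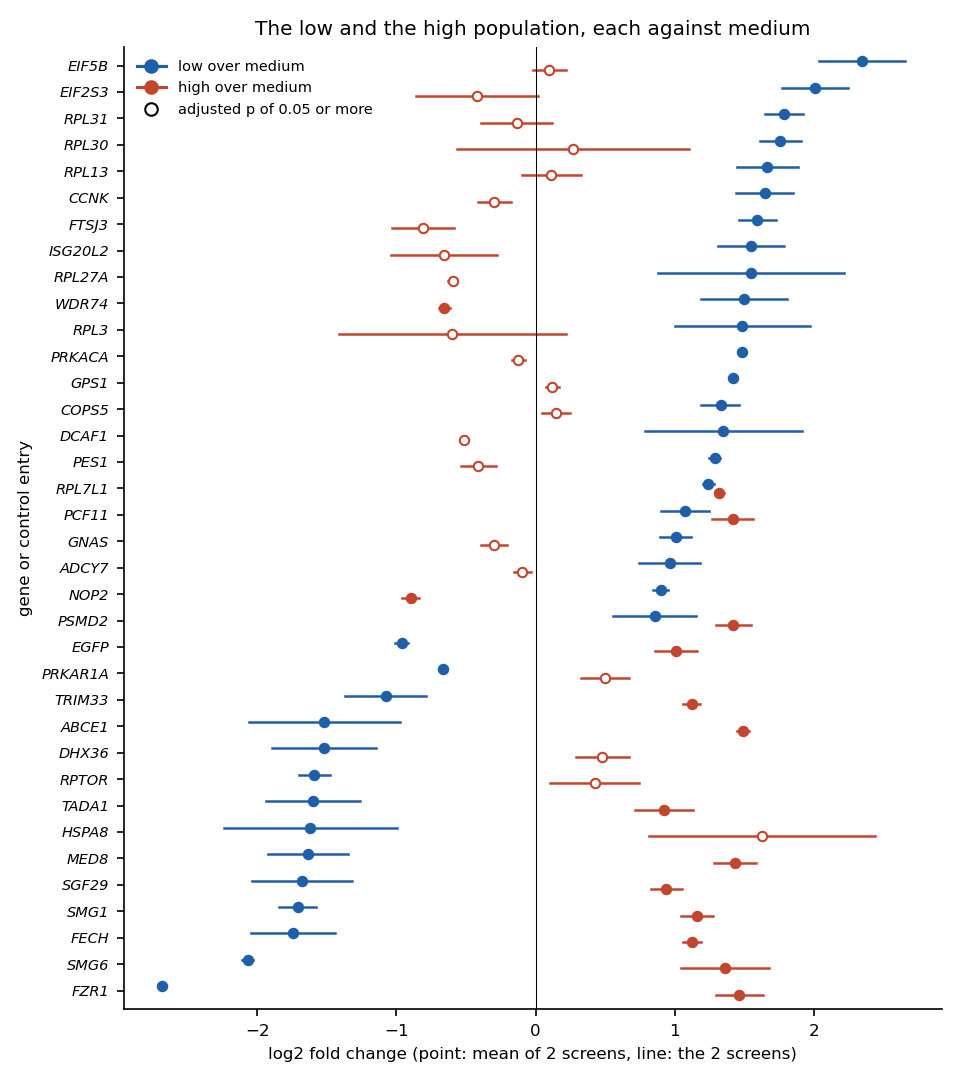
Log2 fold change of low over medium (blue) and of high over medium (red) for named genes and the EGFP control entry. Points are means of 2 screens, lines join the screens, and open points have an adjusted p of 0.05 or more. *EIF5B*, *PRKACA* and *GPS1* have red points near 0, while *FZR1* has points at −2.68 and 1.46, and *RPL7L1*, *PCF11* and *PSMD2* have both points right of 0.

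By list, the large-subunit assembly factors had medians of 0.94 in low over medium and −0.29 in high over medium, where 0 were higher and 3 lower, and the COP9 signalosome had 0.96 and −0.03, where 0 passed. Mediator had −0.69 and 0.62, with 14 of 32 higher in the high population, and SAGA −0.55 and 0.68, with 9 of 20. DNA replication genes had −0.21 and 0.82, with 23 of 44 higher in the high population, and the Sm, LSm and tri-snRNP factors −0.60 and 1.30, with 20 of 29. The proteins of the small subunit had 0.23 and 0.67 and the proteasome 0.06 and 0.78. Of 32 proteasome subunits, 6 were higher in low than in medium and 2 lower, and 11 were higher in high than in medium. However, 16 of the 32 had under 50 reads per sgRNA, and 4 of the calls in low over medium were at 50 reads or more. Letting the spread change with reads left 2 higher and 0 lower in low over medium, and the fit with no replicate block left 1 and 0.

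A further test used the sum of the log2 values of low and high less 2 times that of medium. This measure is 0 where a rise on either side is matched by an equal fall on the other. It is also large where a gene rises on both sides, so it does not test a difference in size alone. It passed for 7 genes with more reads outside medium (0.0376% of 18638) and for 0 with fewer, and 1279 genes had an unadjusted p under 0.05 (limma, adjusted p = 0.030 for each of the 7). *EIF5B* had 2.44 and *RPL10A* 2.74, and their mean log2 fold change of high over medium was near 0 (0.10 and −0.0025), though *RPL10A* had 57 and 69 scaled reads in high, against 37 and 28 in medium. Of the other 5, 4 were higher on both sides of medium and *PSMA6* on the high side. *RPL7L1*, a relative of a large-subunit protein, had 1.24 in low over medium and 1.32 in high over medium, *PCF11*, which acts in transcription termination, had 1.07 and 1.42, and the proteasome subunits *PSMD2*, *PSMA1* and *PSMA6* had 0.57 to 0.85 and 1.42 to 1.85. *PSMA6* did not pass in low over medium (adjusted p = 0.080, limma), and *PSMA1* and *PSMA6* had 26.6 and 41.5 reads per sgRNA. The summed reads of *RPL7L1* followed its rise in low but not that in high, with 441 and 341 scaled reads in low, 218 and 192 in high and 194 and 170 in medium. Those of *PCF11* did not follow its mean of logs, with 408 and 504 scaled reads in low, 618 and 644 in high and 405 and 417 in medium, and its rise in low over medium was lost with edgeR on summed reads (0.15, adjusted p = 0.80), when sgRNAs under 50 reads were left out (0.14) and without either low library (1.17 and 0.97). The call of *PSMD2* in low over medium was lost without any 1 of the 4 libraries. *PRKACA* had 1.35 (adjusted p = 0.098, limma), *GPS1* 1.54 (0.096), *COPS5* 1.47 (0.098) and *FZR1* −1.22 (0.13). *GNAS*, *ADCY7*, *CCNK* and *PES1* had 0.71 to 1.35 (adjusted p of 0.13 to 0.42, limma). *RPTOR*, *MTOR*, *RRAGC* and *DHX36* had −1.17 to −0.66 (0.22 to 0.42). A departure from equal and opposite moves was therefore not shown for any of these genes. Without either low library 0 genes passed the asymmetry test, and without the medium library of screen 2 or 3, 58 and 83 passed with more reads outside medium and 15 and 8 with fewer.

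The genes that moved had often become rare since T0. When the sorted libraries were put together in the proportions of the gates and set against T0, the sgRNAs of 83 of the 219 genes higher in low (37.9%) had changed since T0 by a log2 of −1 or below, as had those of 79 of the 287 lower in low (27.5%), against 2.79% of all genes. The median change was −0.68 for the genes higher in low, −0.54 for those lower and 0.04 for all genes. *RPL10A* had −2.91 and *EIF5B* −1.18. By contrast, *PRKACA* had 0.03, *GNAS* 0.09, *ADCY7* 0.16, *FECH* 0.05 and *SMG6* −0.09. A loss of this size was shared by the large-subunit proteins (37 of 45) and the small-subunit proteins (28 of 32), of which 24 and 1 were higher in low than in medium. The part of growth in these results was not tested.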

How the data were processed

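The authors deposited raw read counts per sgRNA and lane, made with MAGeCK, and no genome build is given for them in the sources used here. Of the columns, 4 match no sample and were not used. Gene names and coordinates are those of GENCODE release 44 (GRCh38), which named 18585 of 18638 identifiers and not 53. sgRNA sequences were not used here, so matches to gene copies were not examined.

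The 4 lanes of a library were summed, scaled to the mean total, given a pseudocount of 1 read and put on the log2 scale. limma 3.58.1 (R 4.3.3) tested differences within screens, which follows the design since each screen was sorted into all populations. Deviations of same-numbered low and medium libraries correlated at r = 0.14 over 72709 sgRNAs. edgeR 4.0.16 tested sgRNA counts in the 6 sorted libraries with the screen as a block. Both were tried on simulated data with the same spread set for every sgRNA and true log2 changes of 1 and 0.5. limma recovered 100% and 71% of the changed genes, and edgeR 72.8% and 6.27% of the changed sgRNAs. An sgRNA that did not pass may therefore still have changed. p-values were Benjamini-Hochberg adjusted over all entries, with a threshold of 0.05. Leave-one-out fits used the remaining sorted libraries and assume that a lone library varies like the others. PCR reads carry no molecular identifiers and are not independent molecules. Tables were handled with Python 3.11.15, pandas 2.3.3 and numpy 2.4.6.

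Genes were named by rule: the 12 largest changes in each direction with an adjusted p under 0.05, the same sign in both screens and at least 50 reads per sgRNA, 8 genes the study followed up, up to 4 called members of each of 42 gene lists, up to 6 genes for each direction of the asymmetry test, and controls. Other genes are named to account for a list and were chosen after their values were seen. The comparison, members and lists were chosen with earlier results of these data known. Some results that meet the rule are not reported here.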

Additional observations from a re-analysis of the deposited data

How the results depend on the processing

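Against 219 higher and 287 lower genes, edgeR on summed reads gave 468 and 506, the median over sgRNAs 337 and 487, a spread that depends on intensity 344 and 392, and the fit with no replicate block 127 and 113. The fit of 6 libraries with the replicate block gave 165 and 220, a pseudocount of 5 reads 272 and 416, sgRNAs of at least 50 reads 249 and 350, TMM scaling 216 and 290 and centring on sgRNAs without a target 181 and 263. Leaving out 1 library gave 20 to 187 higher and 11 to 242 lower genes. The 479 higher and 561 lower sgRNAs became 250 and 293 with DESeq2 1.42.0, 318 and 382 with no replicate block, and 194 to 258 and 221 to 368 without 1 library. The genes with positive asymmetry (7) and the genes with negative asymmetry (0) became 74 and 8 (pseudocount of 5), 113 and 13 (centring), 63 and 9 (at least 50 reads), 209 and 32 (median), 41 and 8 (intensity), 2 and 0 (no replicate block), 4 and 0 (6 libraries) and 0 to 83 and 0 to 15 without 1 library. The causes were not tested.

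With no replicate block, SAGA had 5 genes lower in low than in medium, RNA polymerase II 1, DNA replication 1, Sm, LSm and tri-snRNP factors 4, U1, U2, SF3 and PRP19 factors 2, and large-subunit proteins 14 higher. Of 105 named genes and entries, 51 lost their call in that fit, 73 without the low library of screen 2, 89 without that of screen 3 and 0 with TMM. *RPS27* turned to 0.12 with edgeR on summed reads and with sgRNAs of at least 50 reads, and *PSMA2* to 0.047 with that read minimum.

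With 2 screens, the tests lean on a spread pooled over genes, and genes that had become rare since T0 have the least certain values.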

Other observations

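Glycolytic enzymes and other metabolic genes gave few calls between the low and medium populations. *PKM*, pyruvate kinase, had 226 and 206 scaled reads in the low libraries of screens 2 and 3, against 625 and 563 in the medium libraries (log2 fold change −1.41, adjusted p = 0.00048, limma), and *ENO1*, enolase, had 1003 and 1012, against 1831 and 1921 (−0.98). They were the 2 of 17 genes of glycolysis and glucose uptake that were lower, and 0 were higher. Both calls were lost without either low library, at adjusted p-values of up to 0.13 (limma). *ABCC1*, a transporter that exports conjugated and foreign compounds, had 898 and 779 scaled reads in low, against 1616 and 1694 in medium (−0.996, adjusted p = 0.0037, limma), and the other 6 efflux transporters tested did not pass. The call of *ABCC1* was lost without the low library of screen 3 (adjusted p = 0.11, limma). Of 36 subunits of respiratory complex I, 0 passed (median −0.12), and of 22 genes of the RAS-MAPK pathway 0 passed.

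Cytosolic aminoacyl-tRNA synthetases, which charge transfer RNAs, moved in both directions, with *GARS1* at −0.78 and *QARS1* at 0.54 among 22 genes. *QARS1* was also lower in high than in medium (−0.99, adjusted p = 0.011, limma). *ACTR6*, a subunit of the SRCAP remodeler that deposits H2A.Z, had 2387 and 2756 scaled reads in low, against 1418 and 1350 in medium (0.90), with 4 of 4 sgRNAs past edgeR's threshold. None of these 3 calls held without either low library.

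Some further genes were chosen after their values were seen. *PDCL*, a chaperone of G protein βγ subunits, had a log2 fold change of 1.44 in low over medium (1.52 and 1.36 in the screens, adjusted p = 0.00048, limma) and −0.10 in high over medium. *SEC61G* of the protein channel of the endoplasmic reticulum and *EMC3* of the membrane protein insertase had 1.30 and 1.24. All 4 sgRNAs of *PDCL*, *SEC61G* and *EMC3* were higher in low than in medium (edgeR).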
